A study of Rattus norvegicus with 12 samples.

Results

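The genes described here encode factors that start the shortening and removal of mRNA: the zinc finger proteins Zfp36, Zfp36l1 and Zfp36l2, the Btg and Tob proteins Btg1, Btg2, Btg3, Tob1 and Tob2, and the nuclear receptor coactivator Pnrc1. They were taken as every non-control probe whose gene name on the array equals 1 of these 9 symbols, which gave 11 probes for 9 of the 33212 gene names on the array. PC12 cells, a rat line derived from an adrenal chromaffin tumour, were given PACAP38, a neuropeptide that makes these cells grow neurites, at 100 nM. RNA was collected at 6 time points, 5, 10 and 15 min and then 30, 60 and 120 min, from treated cells and from control cells of the same time point, all grown in serum-containing medium on a collagen-coated surface. At each time point the RNA of 6 samples was pooled for each condition, and the PACAP38 pool and the control pool were hybridised together on 2 arrays with the Cy3 and Cy5 dyes exchanged. The groups are therefore 6 time points with 1 pool of each kind, the 2 arrays of a time point repeat the labelling and hybridisation only, and no test was possible at a single time point. What was given to the control cells is not stated in the labels, and a single cell line was studied.

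mRNA decay in the cytoplasm usually begins with removal of the poly(A) tail by the Ccr4-Not complex, followed by removal of the cap and digestion from both ends. Zfp36 proteins bind AU-rich elements, which many short-lived cytokine and early response mRNAs carry near their 3′ end, and recruit Ccr4-Not to them. Btg and Tob proteins bind the catalytic subunits of the same complex and are also known as antiproliferative proteins, and in PC12 cells Btg2 was known early as a gene induced by nerve growth factor.

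Each array carried 45018 spots, of which 1639 were control spots of the array. The RNA of control cells was well above background on 38.4 to 49.6% of the remaining spots of an array. The 8 chromaffin genes that were matched on the array, among them Th, Ddc, Chga and Phox2a, were well above background in control RNA on 12 of 12 arrays. Of 10 genes that mark adrenocortical, glial, immune, endothelial and liver cells, 9 were above background in control RNA on none of the arrays, and Mbp was above background on 3. The 3 slides held 2 time points each, 5 with 10 min, 15 with 30 min and 60 with 120 min, and the 75th percentile of the signal was higher on the third slide. A value read across slides thus carries any difference between slides, while a step between the paired time points does not.

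Values are ratios of the processed signal with PACAP38 to that of the control on the same array, given as fold or log2 fold. A gene was counted as higher or lower at a time point when both of its arrays gave a fold of at least 2, or both a fold of at most 0.5, each with a spot p-value under 0.01. Where a gene had several probes, the probe with the higher mean signal gave its value. By this rule 5 of the 9 genes, Btg1, Btg2, Pnrc1, Tob1 and Zfp36l2, were counted as higher at 1 or more time points, and none was counted as lower. Among all probes above background at 1 or more time points, 848 of 20266 (4.18%) were counted as higher at any time and 741 (3.66%) as lower, so that no lower call among 9 genes lies near the share over the array. Fewer cells holding an mRNA and less of it per cell cannot be told apart in this RNA.

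The count grew up to 60 min. At 5 min no member was counted as higher, and neither was any of the 17754 probes above background (0%). Btg2 was counted alone at 10 min, where 0.158% of all probes above background were counted as higher, and at 15 min, where 0.214% were. At 30 min Btg2 and Zfp36l2 were counted with both RNAs above background, against 0.594% of all probes, and Tob1 was counted too but was above background in treated RNA alone. At 60 min Btg1, Btg2, Pnrc1, Tob1 and Zfp36l2 were counted, 5 of the 9 genes, against 1.79% of 19690 probes. At 120 min Btg1, Btg2 and Pnrc1 were counted, against 4.24% of all probes. Over the members with both RNAs above background on at least 1 array, the median log2 fold was 0.11 at 5 min, 1.66 over 7 genes for 60 min and 0.79 by 120 min, while the median of all probes lay between -0.03 and 0.01 at every time point.

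**Figure D1:**
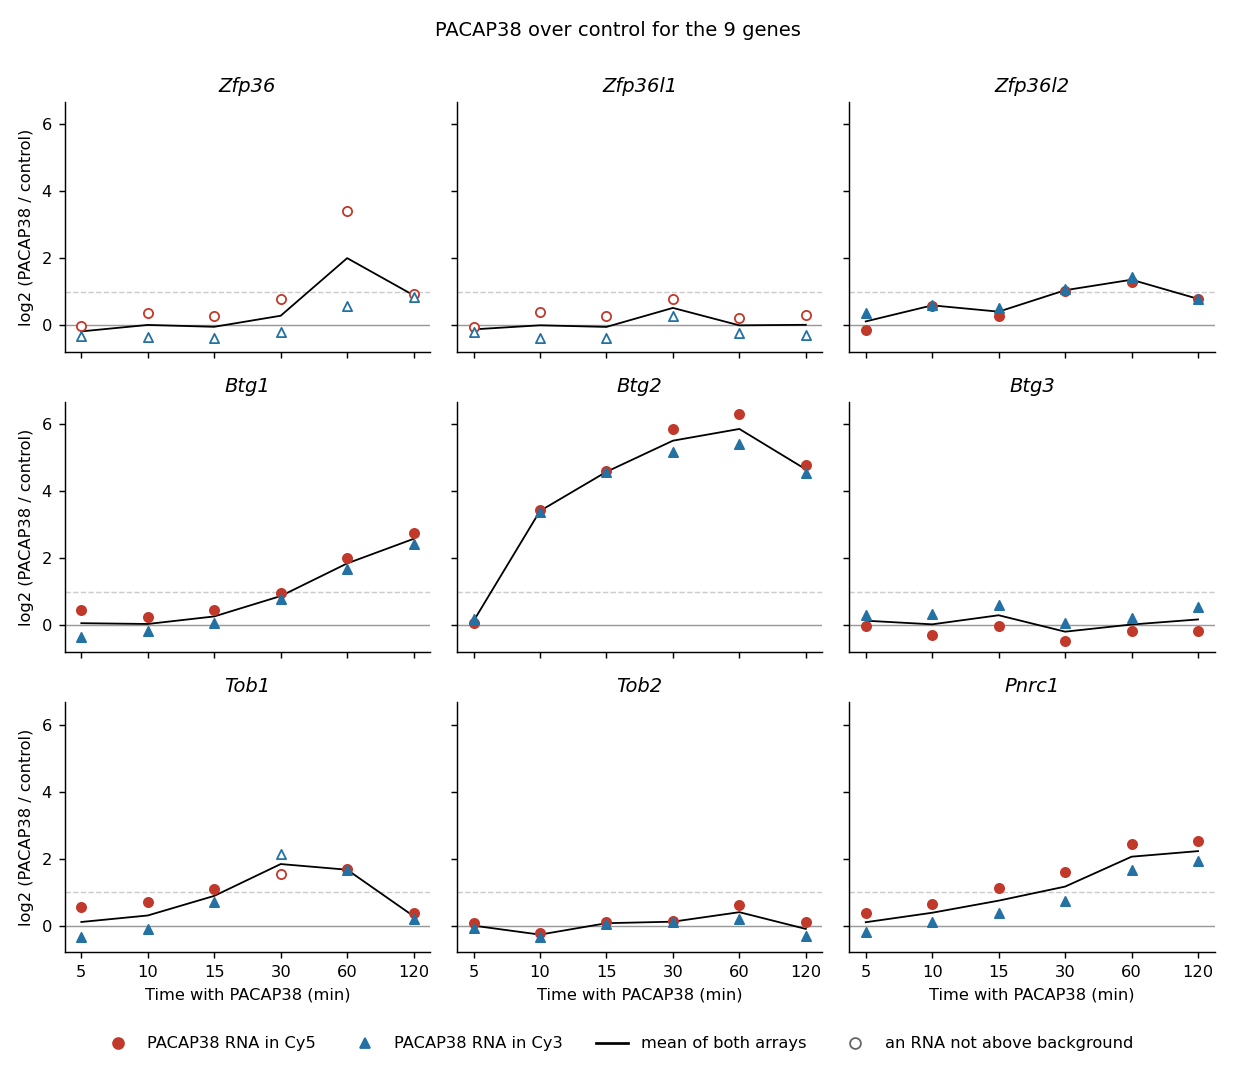
Log2 of PACAP38 over control (y axis) against time with PACAP38 in min (x axis, evenly spaced) for the 9 genes, with 1 point for each array and the line at the mean of both arrays; open points mark time points at which 1 RNA or both were above background on neither array, and the dashed line marks a 2-fold difference. Btg2 stood above 10-fold on both arrays from 10 min onwards in these processed signals (6.58 at 10 min under normexp with loess), Btg1 and Pnrc1 were highest at 120 min, and Tob1 and Zfp36l2 had returned below 2-fold at 120 min.

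The stretches before the start of 4 of these genes are shown first. They were chosen among the 7 promoters with a match as those of 3 genes counted as higher, Btg2, Btg1 and Zfp36l2, and of Zfp36, which was above background with PACAP38 alone. They are RefSeq promoters of rat build GRCr8, read 5′ to 3′ on the gene's strand, and the capitals mark matches to the cAMP response element TGACGTCA or its shorter form TGACG, the AP-1 site TGANTCA, the Egr site GCGNGGGCG, the CArG box bound by serum response factor, all on both strands, and TATAAA on the gene's strand. TGACG lies within TGACGTCA, and a match inside the full element was counted once.
Btg2, bases -201 to -102, chr13:48087792-48087891, minus strand: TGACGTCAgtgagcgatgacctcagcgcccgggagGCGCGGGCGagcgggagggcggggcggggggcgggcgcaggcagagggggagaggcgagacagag
Btg1, bases -108 to -9, chr7:33228041-33228140, plus strand: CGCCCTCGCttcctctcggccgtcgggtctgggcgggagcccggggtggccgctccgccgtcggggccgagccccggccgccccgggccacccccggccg
Zfp36l2, bases -147 to -48, chr6:16242475-16242574, plus strand: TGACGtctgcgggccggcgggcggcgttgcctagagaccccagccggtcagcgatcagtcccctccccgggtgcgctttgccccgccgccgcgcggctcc
Zfp36, bases -100 to -1, chr1:92799109-92799208, minus strand: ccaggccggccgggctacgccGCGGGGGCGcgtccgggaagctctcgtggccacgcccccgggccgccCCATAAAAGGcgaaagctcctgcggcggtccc

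Promoters were given for 8 of the 9 genes, from 250 bases before to 50 bases after the start. The full cAMP response element was found in 1 of the 8, that of Btg2, 201 bases before the start, and in 1.83% of all 33469 promoters. An Egr site stood in the promoters of Btg1, Btg2 and Zfp36 and in 4.98% of all promoters, a CArG box in that of Zfp36 alone among the 8 and in 1.64% of all, and an AP-1 site in that of Zfp36l1 and in 7.33% of all. TGACG was present in the promoters of Btg2, Zfp36l2 and Tob2 and in 21.2% of all, and TATAAA in those of Tob1 and Zfp36l1 and in 8.80% of all. No cAMP response, AP-1, Egr or CArG match was found in the window of Tob1, and the promoter of Pnrc1 was not used here. These are matches of letters, and binding was not measured.

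Btg2, an antiproliferative partner of the Ccr4-Not deadenylases and an early response gene, was the first member counted and had the largest folds among the 9 genes at every time point from 10 min. Its probe lies at chr13:47027022-47027081 on build rn4, the build of all probe positions given here. In control RNA its signal stayed between 233 and 887 over the 12 arrays. With PACAP38 in Cy5, the signal of the treated RNA was 397, 2541, 10418, 19409, 41301 and 15714 over the 6 time points. With PACAP38 in Cy3 it was 298, 3462, 9248, 24917, 37796 and 16466. Treated and control signals overlapped at 5 min only.

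The Btg2 fold was 1.05 and 1.14 on the arrays with PACAP38 in Cy5 and in Cy3 at 5 min, while the same slide gave 10.9 and 10.51 for 10 min. It reached 24.2 and 23.9 by 15 min, 58.1 and 36.05 by 30 min, 80.0 and 42.6 by 60 min, and then stood at 27.5 and 23.2. The size of these folds depended on the background correction: with normexp and loess the mean was 6.58 in place of 10.7 for 10 min and 16.1 in place of 24.05 for 15 min, and with normexp and median centring it was 30.2 in place of 45.8 for 30 min and 14.5 in place of 25.3 for 120 min. Between 60 and 120 min, within 1 slide, the log2 fold fell by 1.54 with PACAP38 in Cy5 and by 0.88 with PACAP38 in Cy3. Ranked by mean log2 fold among all probes above background, Btg2 held place 5 of 17097 at 10 min, place 3 of 17325 at 15 min, place 8 of 19690 for the 60 min pools and place 34 of 18586 for the last ones.

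Btg1, the closest relative of Btg2 in the family, differed from it in the time of its increase. Its probe lies at chr7:34031368-34031427. The control signal ranged from 3960 to 8270. With PACAP38 in Cy5 the treated signal was 5479, 7350, 6035, 9347, 18728 and 50751 over the time course, and with PACAP38 in Cy3 it was 5668, 4938, 5621, 7838, 20532 and 44416. Treated signals lay within the control range through 15 min and above every control signal at 60 and 120 min. The fold on the 2 arrays was 1.95 and 1.74 at 30 min, not counted, then 4.02 and 3.25 at 60 min, and it ended at 6.71 and 5.37, both counted. At 120 min the fold of Btg1 had risen further within the slide, by 0.74 and 0.72 log2 units on the 2 arrays, while that of Btg2 fell.

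Btg3, the third Btg gene measured, was not counted at any time point. Its probe spans 4251 bases of the genome, chr11:17250105-17254355, so that its 60 bases cross at least 1 intron. Treated signals ran from 76.7 to 202 and control signals from 69.5 to 179, and the ranges overlapped almost completely. The fold lay between 0.729 and 0.990 on the arrays with PACAP38 in Cy5 and between 1.06 and 1.54 on those with PACAP38 in Cy3, and the mean of both arrays between 0.88 and 1.24. The order of the arrays was the same at 6 of 6 time points, so that each orientation alone would give Btg3 a direction that their mean did not.

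Tob1, the first of the Tob proteins, which bridge poly(A)-binding protein and the deadenylases, had a short increase. Its probe lies at chr10:82854241-82854300. With PACAP38 in Cy5 the treated signal was 30.4, 44.3, 46.4, 42.6, 124 and 68.3 over the 6 time points, against 20.6, 27.3, 21.9, 14.8, 38.7 and 53.2 in the control. With PACAP38 in Cy3 the treated signal was 30.6, 18.9, 48.2, 47.0, 255 and 90.4, against 39.0, 20.3, 29.9, 10.6, 81.1 and 78.9. Treated exceeded control on both arrays from 15 min onwards, and by less than 1.5-fold on each at 120 min.

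At 30 min Tob1 was above background in control RNA on neither array, and the treated RNA was at least 2.33-fold higher than the control. At 60 min both RNAs were above background and the fold was 3.19 and 3.15 on the 2 arrays. At 120 min it was 1.28 and 1.15, a fall of 1.32 and 1.46 log2 units on the same slide. With the scanner's mean and background signals corrected by normexp and an offset of 50, the fold of this probe was 1.16 at 30 min and 1.49 at 60 min, and Tob1 was then not counted. An offset of 50 draws the ratio of signals this dim towards 1. The loss of the call at 30 min therefore cannot decide whether Tob1 rose.

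Tob2 was counted at no time point. At its probe with the higher mean signal, chr7:120201247-120201306, treated signals ran from 108 to 224 and control signals from 120 to 222. The fold was largest at 60 min, with 1.53 and 1.14 on the 2 arrays, and smallest at 10 min, with 0.862 and 0.795. The other probe, chr7:120202736-120202795, was above background in control RNA on none of the arrays and in treated RNA on 1 array at 120 min, and no fold is given for it.

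**Figure D2:**
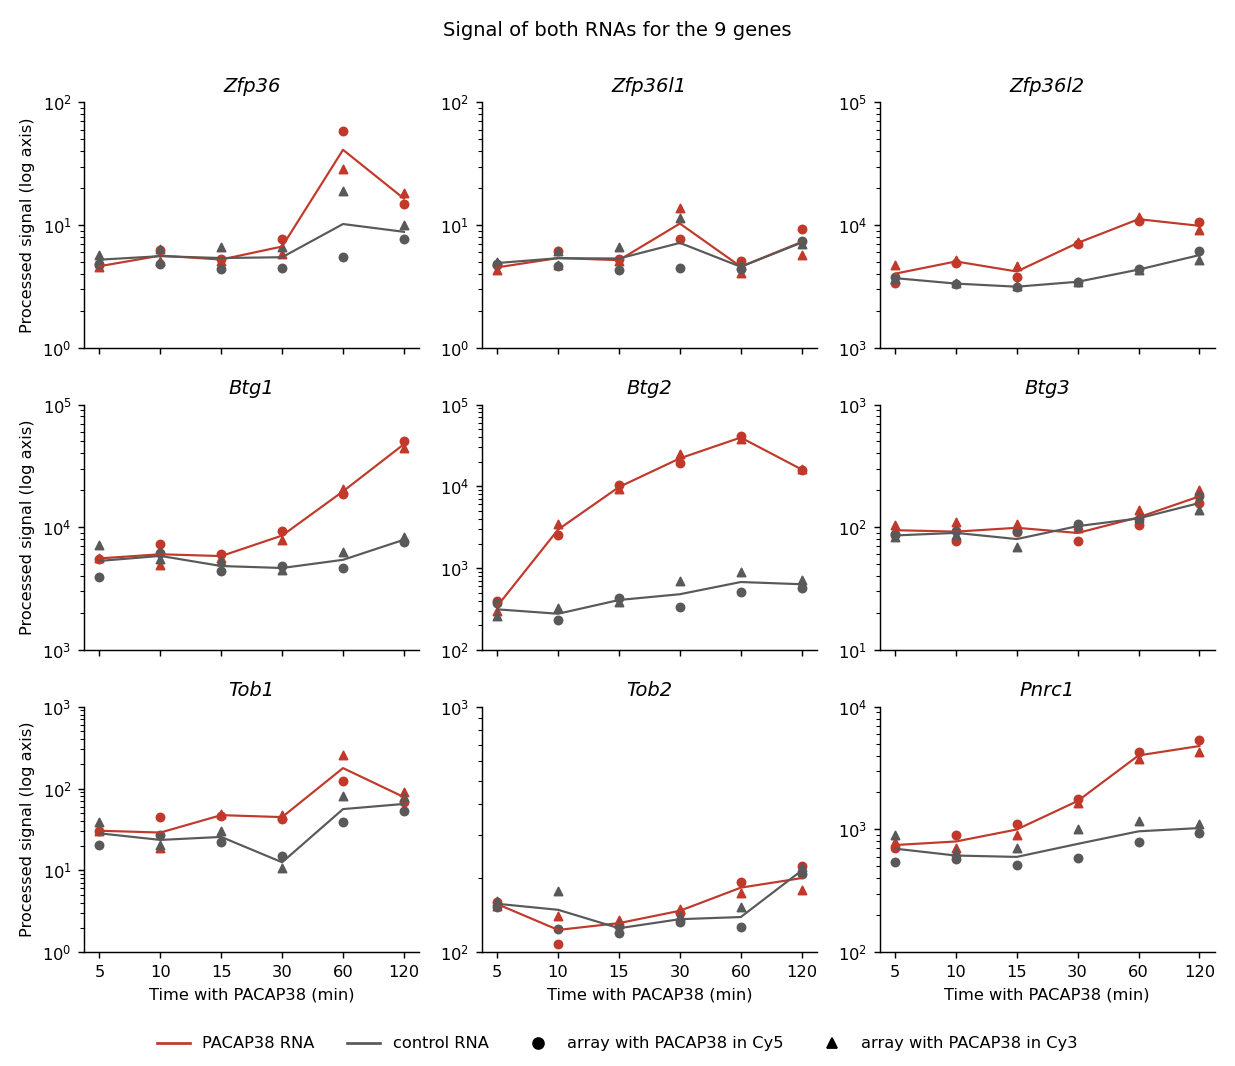
Processed signal (y axis, log scale, a range of its own for each gene) against time with PACAP38 in min (x axis, evenly spaced) for PACAP38 RNA and control RNA, with 1 point for each array and lines at the geometric mean of both. The treated signal of Btg2 rose from 298 to 397 at 5 min to 37796 to 41301 at 60 min while its control signals stayed between 233 and 887, and the signals of Btg3 and Tob2 overlapped.

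Among the AU-rich element binding proteins, Zfp36l2 was counted at 30 and 60 min. At its probe with the higher mean signal, chr6:7532694-7532753, the control signal ranged from 3110 to 6193. With PACAP38 in Cy5 the treated signal was 3401, 4919, 3797, 7043, 10710 and 10657 over the 6 time points, and with PACAP38 in Cy3 it was 4743, 5193, 4612, 7267, 11657 and 9127. The treated signals of 30, 60 and 120 min lay above every control signal. The fold on the 2 arrays was 1.496 and 1.53 at 10 min. It was 2.03 and 2.11 for the 30 min pools, 2.45 and 2.70 for those of 60 min, and 1.72 and 1.74 for the last ones.

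The fold of Zfp36l2 at 30 min stood close to the limit of 2, and with normexp and median centring in place of the processed signals 1 of the 2 arrays lay below 2-fold at 30 and 60 min, and the gene was not counted. A second probe, whose 60 bases span 554 bases of the genome (chr6:7534174-7534727) and so cross an intron, was above background in treated RNA on both arrays and in control RNA on neither at 60 and 120 min. This probe was not counted, and no fold is given for it.

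Zfp36, also called tristetraprolin, the best studied member of its family and an early response gene, was at the edge of detection. Its probe, chr1:83486788-83486847, holds the core of an AU-rich element, the heptamer TATTTAT in DNA letters, that Zfp36 proteins bind. It is shown for this reason, with the heptamer in capitals.
Zfp36 probe, bases 3 to 32 of 60: ttatgacgacttTATTTATtgtaataagat
The heptamer started at bases 15 and 40 of this probe, was absent from the other 10 member probes, and occurred in 366 of all 41012 probes (0.892%).

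Zfp36 was well above background in treated RNA on both arrays at 60 min and at no other time point, and in control RNA on none of the arrays. At 60 min the treated signal was 58.6 and 28.8 on the arrays with PACAP38 in Cy5 and in Cy3, and the control signal was 5.46 and 19.0. Averaged over both arrays after scaling between arrays, the treated level was at least 1.999-fold higher. The signal ratio was 10.7 on the first array and 1.51 on the second, which lay below this bound. The spot p-value was 5.0e-09 on the first array and 0.18 on the second, and Zfp36 was not counted. At 120 min the signals were 14.9 and 18.2 against 7.68 and 10.1, all below the limit of detection. Under normexp with an offset of 50 the signal ratio at 60 min was 1.11, also against a control not above background. Such an offset draws the ratio of signals this dim towards 1. Zfp36l1, at chr6:103119626-103119685, was above background in neither RNA on any array, and no statement on it can be made at this sensitivity.

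Pnrc1, a small proline-rich coactivator of nuclear receptors that also binds the decapping machinery, followed a course like that of Btg1. Its probe lies at chr5:49544715-49544774. The control signal ranged from 510 to 1172. With PACAP38 in Cy5 the treated signal was 702, 902, 1109, 1757, 4308 and 5389 over the 6 time points, and with PACAP38 in Cy3 it was 793, 705, 899, 1656, 3730 and 4244. Treated signals exceeded every control signal from 30 min onwards.

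The Pnrc1 fold on the 2 arrays was 2.17 and 1.29 at 15 min and 3.03 and 1.65 at 30 min. On the third slide it was 5.42 and 3.18 for 60 min, with 5.71 and 3.80 for 120 min. The array with PACAP38 in Cy5 gave the higher value at 6 of 6 time points, by 0.55 to 0.87 log2 units, and at 30 min the array with PACAP38 in Cy3 lay below the 2-fold limit. For Btg3 the difference had the opposite sign, from -0.72 to -0.33 log2 units, and for Zfp36l2 it ran from -0.53 to -0.02. Averaging the 2 orientations removes an offset of this kind.

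**Figure D3:**
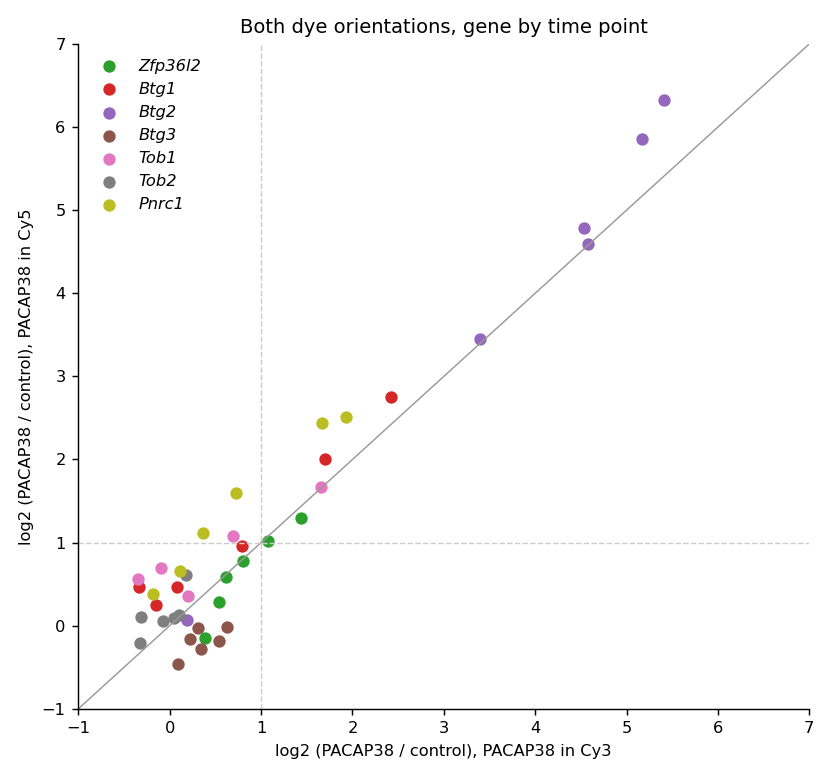
Log2 of PACAP38 over control with PACAP38 in Cy5 (y axis) against the same with PACAP38 in Cy3 (x axis), 1 point for each gene and time point with both RNAs above background on at least 1 array (41 points); the solid line marks equal values and the dashed lines a 2-fold difference. Pnrc1 lay above the line by 0.55 to 0.87 and Btg3 below it at every time point.

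A course over the 6 time points can be tested across all probes. A straight line of log2 fold on log2 time was fitted with limma, and 106 of 20203 probes (0.525%) had a rising slope at a Benjamini-Hochberg adjusted p below 0.05. Of the 8 member genes in the fit, Pnrc1 and Btg1 were among them. The slope of Pnrc1 was 0.51 log2 units per doubling of time (SE 0.043, adjusted p = 0.0399 by limma), and that of Btg1 was 0.59 (SE 0.076, adjusted p = 0.0450 by limma). Btg2 had a slope of 0.94 (SE 0.32) with an adjusted p of 0.129 by limma, and its fold was lower at 120 than at 60 min. The Btg2 slope depended on single time points, with 0.38 when 5 min was left out and 1.53 when 120 min was left out. The slopes of Zfp36l2, Tob1, Tob2 and Btg3 were 0.20, 0.17, 0.04 and -0.01, none below the adjusted limit. With 120 min left out these slopes were 0.34, 0.52, 0.13 and -0.06, and with 5 min left out that of Tob1 was 0.05. Zfp36 entered the fit through its treated RNA at 60 min alone, and no slope is given for it. With the slide as a block the Btg1 and Pnrc1 slopes were 0.44 and 0.29 and the adjusted p was 0.894 for each by limma, and both calls were also lost when any time point other than 5 min was left out.

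The mean log2 fold over the 6 time points was tested in the same way, and no probe of 20203 passed the adjusted limit with limma, while 1845 had an unadjusted p below 0.05. Btg2 had the largest mean of the members, 4.03 (SE 0.73, adjusted p = 0.419 by limma). The control signals themselves, scaled by the 75th percentile of each array, showed no slope on time past the adjusted limit for any of 17998 probes (3577 had an unadjusted p below 0.05). On this scale the control level of Btg2 varied over 0.86 log2 units and that of its treated RNA over 6.47. For Zfp36l2 the ranges were 0.14 and 1.11, for Pnrc1 0.30 and 2.06, and for Btg1 0.53 and 2.43. For Tob1 no control range is given, since its control RNA was above background on neither array at 30 min, where the treated level (-2.20) was not above that of 15 min (-2.06). For Tob2 the control range, 0.55, was larger than the treated range, 0.31.

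For each member counted at any time, the genes with the most similar log2 folds were sought among 12609 genes above background at every time point, by the root mean square difference over the 6 time points. Btg2 was closest to Egr1, with a difference of 0.64, to Nr4a2, with 0.79, and to a transcript listed as XM_213050, with 0.98. Btg1 was closest to Bdkrb2 (0.13), Slc25a25 (0.14) and Rcan1 (0.15), all counted at 60 and 120 min as Btg1 was. Pnrc1 was closest to Cebpb (0.22), Rhob (0.24) and a transcript listed as TC627947 (0.25). The 3 closest to Zfp36l2 were the transcripts listed as TC613578 (0.19) and TC607281 (0.20) and the gene Irf2bp2 (0.21). Tob1 was left out here because it was not above background on both arrays at 10 min. These are descriptions over 6 time points that share their slides.

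The machinery that these factors recruit was described with 5 lists of 64 genes, of which 62 were found on the array. Of these, 60 were counted at no time point, and Mapkapk2 and Dcp1b were the exceptions. Over the array 7.84% of the probes above background were counted as higher or lower at any time, 4.24% as higher and 3.37% as lower at 120 min, so that few or no calls in lists of these sizes say nothing particular about them. No subunit of the Ccr4-Not complex was counted, with all 12 above background at 60 and 120 min and medians of -0.01 and -0.06 log2 units. At 120 min the lowest was Cnot11 at 0.581-fold and the highest the catalytic subunit Cnot6l at 1.16-fold. Of the other deadenylases and poly(A)-binding proteins none of 4 was counted, with Pan3 at 0.767-fold and Pabpc4 at 1.25-fold as the extremes.

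Mapkapk2, the kinase that phosphorylates Zfp36 and keeps it from recruiting the deadenylases, was the 1 gene counted as higher among the 17 regulators and other AU-rich element binding proteins above background. Its fold was 1.09 and 1.06 on the 2 arrays at 30 min, then 2.42 and 2.65 at 60 min, and 6.52 and 5.56 for the last pools. The median of its list was -0.09 log2 units at 120 min, and the lowest gene was Tia1 at 0.615-fold. Dcp1b, an activator of the decapping enzyme, was counted as lower at 120 min, with 0.404 and 0.322 on the 2 arrays, after 0.680 and 0.545 at 60 min. In the same list of 14 decapping and 5′ to 3′ decay genes above background, the scaffold Patl1 was highest at 1.51-fold, and the median was -0.20. None of the 11 exosome genes was counted, with a median of -0.27 log2 units at 120 min and a range from Exosc1 at 0.637-fold to Exosc5 at 1.095-fold.

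**Figure D4:**
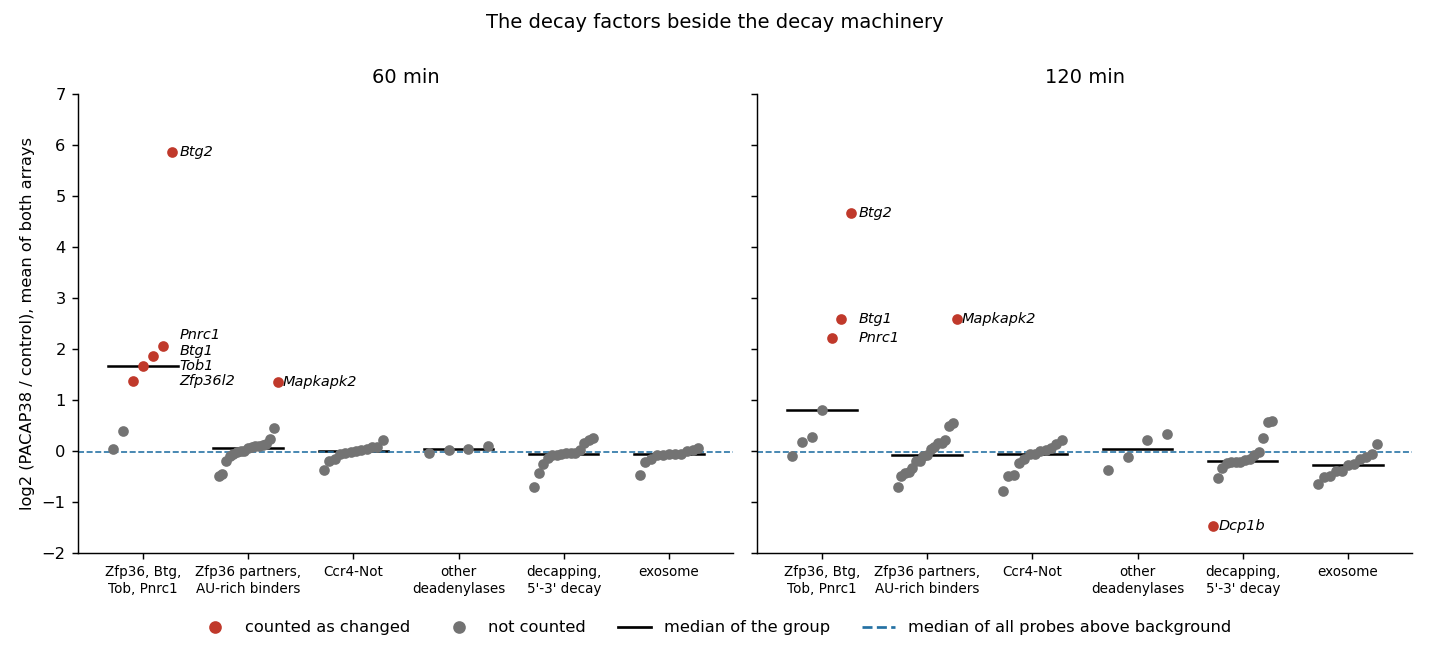
Log2 of PACAP38 over control (y axis, mean of both arrays) at 60 min and at 120 min for the member genes with both RNAs above background and for the genes above background in 5 lists of the decay machinery (x axis), 1 point for each gene, counted genes in red; black bars are the median of each group and the dashed line is the median of all probes above background. At 60 min 5 member genes and Mapkapk2 were counted, and at 120 min 3 member genes, Mapkapk2 and, below the line, Dcp1b.

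The mRNAs that Zfp36 proteins are known to bind were described with a list of 19 genes, all on the array, of which 6 at most were above background at a time point. Most of the others are cytokine and inflammatory genes. Fos, a subunit of the AP-1 factor, was counted from 10 min with 18.2-fold and 15.5-fold on the 2 arrays, and still stood at 21.3 and 15.6 at 120 min. Dusp1, a phosphatase of MAP kinases, had 6.89 and 6.72 at 15 min and 29.4 and 18.3 at 120 min. Ier3 was counted at 60 min with 2.28 and 2.21 and at 120 min with 7.34 and 7.19. Il6 was above background at 120 min in treated RNA on both arrays and in control RNA on neither. Averaged over both arrays after scaling between arrays, it was at least 5.329-fold higher. The signal ratio was 3.21 with PACAP38 in Cy5, below this bound, and 33.6 with PACAP38 in Cy3. The 2 orientations also differed at 5 min, with 0.234 and 4.58. The lowest gene of the list at 120 min was Ccnd1 at 0.905-fold. At 60 min 3 of the 6 list genes above background were counted as higher and none as lower, beside 1.79% and 0.782% of all probes. At 120 min 3 of the 5 list genes with both RNAs above background were higher and none lower, beside 4.24% and 3.37%. Il6 is left out of this last count, since it passed background in treated RNA alone. The list was chosen with earlier results of these data known, so these counts are no test of the targets. The decay of these mRNAs was not measured.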

How the data were processed

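Total RNA of PC12 cells was labelled and hybridised by the authors on 12 Agilent 4x44K rat arrays. The deposited processed intensity values were background-subtracted and LOWESS dye-normalized by the authors with Feature Extraction, given as version 11.0.1.1 in the submitters' processing notes and 12.0.3.1 in the file headers; the study's methods name a further version. The deposited log10 ratio table equals the log ratio of these signals within 0.001 log2 units on 100% of spots, and the deposited spot p-value is the authors' software's error estimate for the ratio. Here log2 ratios were turned by dye orientation, control spots and outlier-flagged spots were left out, and spots of a probe were averaged. Alternatives took the scanner's mean and background intensity with normexp (offset 50), loess or median centring. A bound compares loess and Aquantile channel means with the lowest signal well above background. Fits used limma 3.58.1 in R 4.3.3 on 1 mean per time point, for probes that passed background in 1 or both RNAs on each array of some time point, and were tested on simulated data. The precision is limited by 2 arrays of the same pools. The members and the gene lists were chosen with earlier results of these data known. Named are all members, list genes counted at any time or at either end of a list at 120 min, and for each counted member above background at every time point the 3 closest genes or transcripts, which leaves out Tob1.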

Additional observations from a re-analysis of the deposited data

Results flagged for a closer look

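For Tob2 the mean log2 fold was -0.27 at 10 min, with both arrays below 0, and 0.069 at 15 min, 0.11 at 30 min and 0.40 at 60 min, with both arrays above 0. The difference between these time points was not tested, and no time point was counted. With normexp and loess the fold was 0.939 in place of 0.828 at 10 min, and it was 0.998 in place of 1.049 at 15 min, where the direction was thus turned.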

How the results depend on the processing

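The count of 5 member genes was 3 with normexp and median centring and between 4 and 6 under every other alternative tried. The number of members with a slope past the adjusted limit, 2 for the deposited signals, was 1 with normexp and loess and 0 with normexp and median centring, without a filter on dim probes, with PACAP38 in Cy5 alone and with the slide as a block; with 1 time point left out it ranged from 0 to 2. For all probes the 147 slopes past the limit were 26 with normexp and loess, 1 with normexp and median centring, 29 from the arrays with PACAP38 in Cy3, 3 from those with it in Cy5, 0 with the slide as a block or without a filter, 542 for probes above background at every time point, 5335 on time in minutes and between 0 and 153 with 1 time point left out. The mean over time passed for 0 members, for 3 in each single dye orientation, and for 0 to 1 with 1 time point left out; over all probes 2311 and 3535 passed in the single orientations and 0 to 15 with 1 time point left out. The control slope passed for 0 members, and for 3 members and 5301 probes in unscaled signals (7 probes with the slide as a block); the cause was not tested. Of 43 member log2 folds, 30 moved by less than the spread of their arrays under normexp with loess, and the 15 over 2-fold kept their sign. No paired analysis was possible because the replicate numbers name dye orientations of the same pools.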
